A study of Mus musculus with 8 samples.

Results

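The inflammatory CC chemokines described here are the products of 10 genes, Ccl2, Ccl3, Ccl4, Ccl5, Ccl6, Ccl7, Ccl8, Ccl9, Ccl11 and Ccl12, measured by RNA-seq in whole aortas of atherosclerosis-prone mice. The list of genes was drawn up with earlier results of these data known. Each gene was matched to its locus by name, and the locus with the most counts was taken where a name stood for more than 1 locus. Because Ccl7 and Ccl11 had been assembled into a single locus, the 10 genes were represented by 9 of the 48607 loci of the gene table. All 8 aortas came from mice that lacked ApoE, the apolipoprotein that clears remnant lipoproteins, and that ate a Western diet before tissue collection. The compared factor was NPRC, the natriuretic peptide receptor without guanylyl cyclase activity that is encoded by Npr3. It was inactivated in the whole animal by a CRISPR frameshift in exon 1, and the NPRC-/-ApoE-/- mice were littermates of the ApoE-/- mice. Purchased ApoE-/- mice were males per the study's methods, and neither age nor sex was given for the individual sequenced littermates.

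The sample titles named 5 ApoE-/- libraries (1 to 5) and 3 NPRC-/-ApoE-/- libraries (1 to 3), and the separate genotype entries also gave 5 against 3, but with a different membership. The libraries titled ApoE-/- 4 and 5 were entered as Nprc-/-Apoe-/-, and those titled NPRC-/-ApoE-/- 1 and 2 were entered as Apoe-/-, so that only 4 of the 8 libraries had labels naming the same genotype. The sources do not say which label applies. Libraries are therefore named by title, and the differences are given by title and by genotype entry. The study's methods name as many NPRC-/-ApoE-/- as ApoE-/- mice for sequencing, and any NPRC-/-ApoE-/- library beyond these 3 was not analysed here. Total counts were between 62969165 and 86693276 per library. Npr3 did not separate either pair of groups, and whether the frameshift lowers its transcript was not tested. Its level was 1.69, 0.93, 0.62, 1.01 and 1.67 FPKM (fragments scaled to transcript length and sequencing depth) in ApoE-/- 1 to 5 and 1.18, 1.39 and 1.13 FPKM in NPRC-/-ApoE-/- 1 to 3. By title it differed by 0.10 on the log2 scale (standard error 0.28) and by genotype entry by 0.16 (standard error 0.28), so Npr3 gave no check of the labels.

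CC chemokines are small secreted proteins that bind G protein-coupled receptors on leukocytes and guide their movement into tissue. In atherosclerosis they are known for drawing monocytes from the blood into the arterial wall, where these become macrophages and lipid-laden foam cells. The monocyte chemoattractant proteins (Ccl2, Ccl7, Ccl8 and Ccl12 in the mouse) act largely through CCR2, with mouse Ccl8 known also as an agonist of CCR8. Ccl3, Ccl5, Ccl6 and Ccl9 act through CCR1, Ccl4 is a macrophage inflammatory protein closely related to Ccl3, and Ccl11, also called eotaxin, through the eosinophil receptor CCR3.

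All 10 genes lie on chromosome 11 (GRCm38, GENCODE M21), in 2 neighbouring groups. Ccl2, Ccl7, Ccl11, Ccl12 and Ccl8 follow each other on the plus strand between 82035571 and 82116799. The genes from Ccl5 (start 83525778) to Ccl4 (end 83664683) hold Ccl9, Ccl6 and Ccl3 between them, and only Ccl4 of these is on the plus strand. The promoters of the members with the highest FPKM, and of Ccl12, the neighbour of Ccl8, are printed because these genes are set against each other in the results. Each line gives the 250 bases before the start of transcription in the direction of transcription, from RefSeq (GRCm38.p6). The windows are chr11:82114935-82115184 and chr11:82101595-82101844 on the plus strand, and chr11:83593088-83593337 and chr11:83578637-83578886 on the minus strand. Capitals mark every match to TATAAA, to GAGGAA or its reverse complement (the purine-rich box that binds ETS factors such as PU.1 in myeloid cells) and to the kappaB consensus, the binding motif of NF-kappaB.
Ccl8: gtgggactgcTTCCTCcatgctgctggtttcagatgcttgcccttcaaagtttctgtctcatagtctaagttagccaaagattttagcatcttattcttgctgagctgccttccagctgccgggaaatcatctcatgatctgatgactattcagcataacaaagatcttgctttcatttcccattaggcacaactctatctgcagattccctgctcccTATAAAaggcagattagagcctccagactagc
Ccl12: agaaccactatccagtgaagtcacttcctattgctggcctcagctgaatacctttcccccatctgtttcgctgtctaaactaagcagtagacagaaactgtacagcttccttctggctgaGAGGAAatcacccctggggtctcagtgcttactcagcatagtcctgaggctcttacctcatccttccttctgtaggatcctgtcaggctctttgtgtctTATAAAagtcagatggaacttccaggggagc
Ccl6: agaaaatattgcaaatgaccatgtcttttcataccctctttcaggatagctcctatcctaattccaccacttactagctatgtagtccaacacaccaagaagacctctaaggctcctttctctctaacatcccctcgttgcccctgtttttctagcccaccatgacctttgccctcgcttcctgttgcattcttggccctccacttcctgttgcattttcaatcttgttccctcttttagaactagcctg
Ccl9: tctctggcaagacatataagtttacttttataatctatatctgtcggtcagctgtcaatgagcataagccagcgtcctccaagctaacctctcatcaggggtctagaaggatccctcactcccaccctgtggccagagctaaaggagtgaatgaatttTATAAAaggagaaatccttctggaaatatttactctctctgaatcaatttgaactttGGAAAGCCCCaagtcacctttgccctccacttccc

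Promoter windows were at hand for 5 members, Ccl3, Ccl6, Ccl8, Ccl9 and Ccl12, and Ccl2, Ccl4, Ccl5, Ccl7 and Ccl11 had no entry. Counted from the start of transcription, TATAAA on the given strand began at -32 in Ccl8 and at -31 in Ccl12, at nearly the same place in both neighbours, and at -92 in Ccl9. It was found in 3 of the 5 windows and in 7.59% of 32851 mouse promoters of the same length. The kappaB consensus was found in Ccl9, where it began at -35, and in 3.9% of all promoters. GAGGAA on either strand was present in Ccl3, Ccl8 and Ccl12 and in 23.3% of all promoters. Neither TTGCNNAA, a motif of C/EBP factors, nor TTCNNNGAA, the interferon-gamma-activated element, was in any of the 5 windows, against 9.56% and 7.02% of all promoters. The Ccl6 window held no match to any motif searched. Aligned in pairs, the 5 windows had between 56.4% and 64.4% identical bases, highest for Ccl8 and Ccl12, and the longest shared run was 13 bases in Ccl6 and Ccl9. These matches are descriptions of letters, with no binding measured.

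Ccl6 and Ccl8 had the highest levels per length. Over the 8 libraries the median level was 32.7 FPKM for Ccl6, 18.9 FPKM for Ccl8 and 8 FPKM for Ccl9, followed by 2.03 FPKM for Ccl12 and 1.46 FPKM for Ccl3. The other members had medians under 1 FPKM, namely 0.835 for the locus of Ccl7 and Ccl11, 0.825 for Ccl4, 0.665 for Ccl5 and 0.635 for Ccl2. Ccl6 was the highest member in 6 libraries and Ccl8 in 2, so these neighbours in the order were not separated by their spread, and neither were the 4 lowest members.

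The low places of Ccl2 and of Ccl7 with Ccl11 depended on the length by which the counts had been divided. The assembled Ccl2 locus began 5582 bases before the annotated gene (chr11:82035571-82037453) and also overlapped Gm17268 on the other strand. Its counts and FPKM values imply a length of 9.07 kb, against 1138 annotated exon bases of Ccl2. The locus of Ccl7 and Ccl11 implied 15.2 kb, against 1883 exon bases of both genes. Per kilobase of annotated exon, the median level of Ccl2 was 4.97 CPM (counts scaled to the library total) and rank 5 of the 9 loci, and that of Ccl7 with Ccl11 was 6.80 CPM and rank 4. These values and ranks take all counts of a locus as coming from annotated exons, which was not tested. Ccl6 (40.9 CPM per exon kilobase), Ccl8 (22.9) and Ccl9 (9.52) stayed in the first 3 places. Fold changes fitted to counts are those of the whole assembled locus and do not depend on this length. The filter on FPKM that chose loci for testing does, and it left out Ccl2 (median 446.5 counts) but kept Ccl5 (median 65 counts).

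Taken by title, every member was on average lower in NPRC-/-ApoE-/- than in ApoE-/- aortas. In the fit that kept loci with low values, all 9 loci had a negative log2 fold change with a median of -0.97, and 4 of 9 were lower with an unadjusted p-value under 0.05, against 5.92% of all 44689 loci in that fit. With edgeR's own filter on low counts, chosen after the data had been seen, it was the same number of 9, against 7.14% of 32816 loci. These 4 were Ccl8, Ccl5, Ccl9 and the locus of Ccl7 and Ccl11. Of the 20506 loci that reached 1 FPKM in 3 or more libraries, 7.13% were lower at this p-value, and 50.9% had a negative fold change. No locus, member or other, had an adjusted p-value under 0.05 in edgeR's quasi-likelihood test (Benjamini-Hochberg over 20506 loci), where 13.6% of the loci had an unadjusted p-value under 0.05. DESeq2 gave 650 loci with an adjusted p-value under 0.05, among them Ccl8 (adjusted p = 0.000637) and the locus of Ccl7 and Ccl11 (adjusted p = 0.00654).

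**Figure D1:**
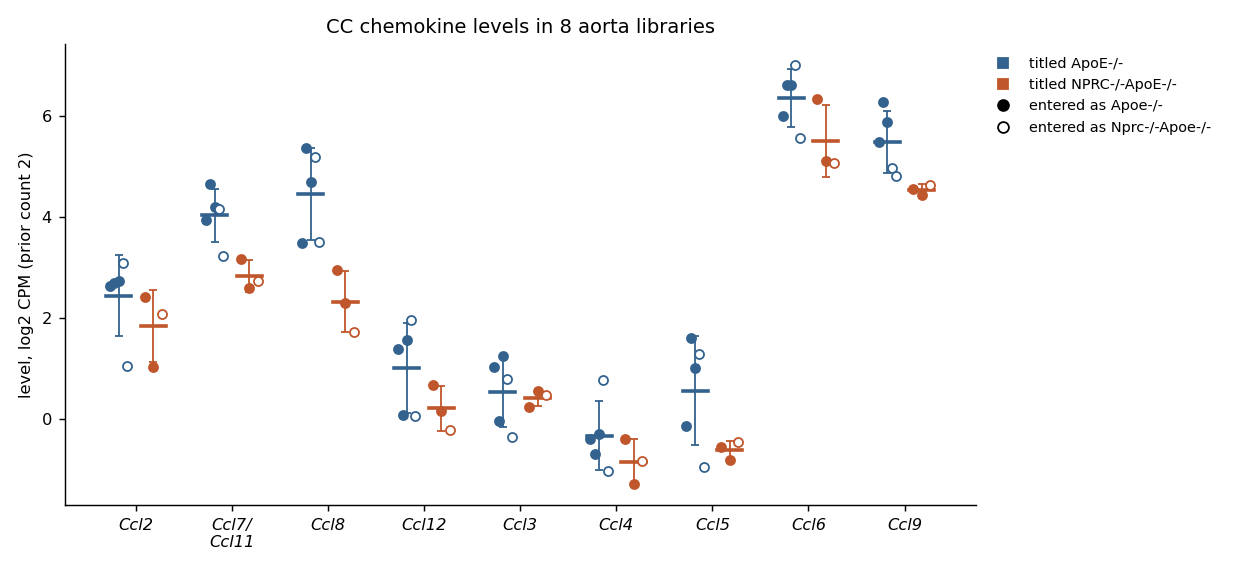
Level of each CC chemokine (log2 CPM, vertical axis) in the 5 libraries titled ApoE-/- (blue) and the 3 titled NPRC-/-ApoE-/- (orange). Points are libraries, filled when entered as Apoe-/- and open when entered as Nprc-/-Apoe-/-, and lines are group means with SD. The titled groups do not overlap for Ccl8, Ccl9 and Ccl7/Ccl11, while open and filled points are mixed for every locus.

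Ccl8 had the largest difference of the members. Its level was 18.5, 68.5, 38.8, 55.5 and 19.3 FPKM in ApoE-/- 1 to 5 and 12.4, 7.87 and 4.94 FPKM in NPRC-/-ApoE-/- 1 to 3. The lowest titled ApoE-/- library was above the highest NPRC-/-ApoE-/- library. The means were 40.1 ± 22.03 FPKM (SD, n = 5) and 8.42 ± 3.78 FPKM (SD, n = 3), a 4.79-fold lower level on the scale of the fitted counts. The log2 fold change was -2.26 (standard error 0.54, unadjusted p = 0.00234), with an adjusted p of 0.25 in edgeR's quasi-likelihood test. A two-sided exact permutation test on log2 CPM gave p = 0.0357, the smallest value that 5 against 3 libraries allow.

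The locus of Ccl7, another CCR2 ligand, and Ccl11, the eosinophil chemoattractant, was also lower in NPRC-/-ApoE-/- aortas without overlap. It was listed at 1.03, 1.67, 1.11, 1.09 and 0.64 FPKM in ApoE-/- 1 to 5 and at 0.59, 0.39 and 0.40 FPKM in NPRC-/-ApoE-/- 1 to 3. The highest NPRC-/-ApoE-/- library and the lowest ApoE-/- library were close to each other. The log2 fold change was -1.25 (standard error 0.31, unadjusted p = 0.0027, exact permutation p = 0.0357). The locus spans both genes and the bases between them, and which of the genes gave the counts cannot be told apart.

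Ccl12 and Ccl2, the remaining monocyte chemoattractant proteins, did not pass the test. Ccl12 was at 4.10, 1.62, 4.10, 5.57 and 1.63 FPKM in ApoE-/- 1 to 5 and at 2.41, 1.65 and 1.19 FPKM in NPRC-/-ApoE-/- 1 to 3. ApoE-/- 2 and 5 were as low as the NPRC-/-ApoE-/- libraries, and the log2 fold change was -0.97 (standard error 0.50, unadjusted p = 0.0834). The unadjusted p of Ccl12 was 0.0487 with DESeq2, 0.0418 with limma and array weights, 0.0365 without ApoE-/- 2 and 0.0327 without ApoE-/- 5. In the other tested fits by title it was above 0.05, up to 0.226 without NPRC-/-ApoE-/- 3. Ccl2, which encodes MCP-1, had 520, 436, 500, 658 and 163 counts in ApoE-/- 1 to 5 and 457, 128 and 335 counts in NPRC-/-ApoE-/- 1 to 3. It had less than 1 FPKM in each library and entered only the fits that kept low values, with a log2 fold change of -0.64 (standard error 0.44, unadjusted p = 0.18, exact permutation p = 0.25). ApoE-/- 5 was as low as NPRC-/-ApoE-/- 2, and NPRC-/-ApoE-/- 1 was near the other ApoE-/- libraries, so that a difference of Ccl2 was not detectable with these 8 libraries.

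Among the ligands of CCR1 and the related Ccl4, Ccl5 and Ccl9 were lower by title in edgeR's quasi-likelihood test, and Ccl3, Ccl4 and Ccl6 did not pass it. For Ccl5 and Ccl6 this depended on the method of testing. Ccl9 was at 12.5, 21.6, 14.7, 7.98 and 8.02 FPKM in ApoE-/- 1 to 5 and at 6.42, 5.79 and 6.26 FPKM in NPRC-/-ApoE-/- 1 to 3. The NPRC-/-ApoE-/- libraries had an SD of 0.33 FPKM, and all 3 were below the lowest ApoE-/- library. The log2 fold change was -1.05 (standard error 0.33, unadjusted p = 0.0111, exact permutation p = 0.0357). Ccl5, also called RANTES and made by activated T cells among others, was at 0.78, 2.63, 1.56, 1.94 and 0.42 FPKM in ApoE-/- 1 to 5 and at 0.55, 0.44 and 0.55 FPKM in NPRC-/-ApoE-/- 1 to 3. ApoE-/- 5 was below all 3 NPRC-/-ApoE-/- libraries. The log2 fold change was -1.48 (standard error 0.57, unadjusted p = 0.0284, exact permutation p = 0.179), and p was 0.05 or more in 6 of the 8 fits that each left out a library. With limma on log2 of FPKM plus 0.1 or 1 the unadjusted p of Ccl5 was 0.0556 and 0.0544. It was 0.00715 with DESeq2 and 0.0167 with limma and array weights.

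Ccl6, the member with the highest median level, was at 29.4, 44.3, 40.3, 54.0 and 22.3 FPKM in ApoE-/- 1 to 5. In NPRC-/-ApoE-/- 1 to 3 it was at 36.0, 15.4 and 13.9 FPKM. NPRC-/-ApoE-/- 1 lay within the ApoE-/- range, and the log2 fold change was -0.81 (standard error 0.39, unadjusted p = 0.0691). Without this library it was -1.35 with an unadjusted p of 0.00678, and without ApoE-/- 5 the unadjusted p was 0.0276. Without NPRC-/-ApoE-/- 2 or 3 the log2 fold change was -0.59 and -0.58, with an unadjusted p of 0.216 and 0.219. Over all libraries the unadjusted p of Ccl6 was 0.0378 with DESeq2 and 0.00326 with limma and array weights. With limma on log2 of FPKM plus 0.1 or 1 it was 0.0427 and 0.0436. A non-coding gene on the other strand, E230016K23Rik, overlaps the Ccl6 locus. Ccl3 showed the smallest difference, at 2.22, 1.03, 2.32, 1.70 and 0.84 FPKM in ApoE-/- 1 to 5 and 1.24, 1.54 and 1.37 FPKM in NPRC-/-ApoE-/- 1 to 3. All 3 NPRC-/-ApoE-/- libraries lay inside the ApoE-/- range, with a log2 fold change of -0.23 (standard error 0.39, unadjusted p = 0.565). Ccl4, its neighbour on the chromosome, had between 0.59 and 1.96 FPKM in the ApoE-/- libraries and between 0.46 and 0.91 FPKM in the NPRC-/-ApoE-/- libraries. Its log2 fold change in the fit that kept low values was -0.63 (standard error 0.48, unadjusted p = 0.217, exact permutation p = 0.321).

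Of the 7 member loci that passed this filter of 1 FPKM in 3 libraries, 4 met the study's criterion of a changed gene (fold change under 0.5 and unadjusted p under 0.05), beside 2.39% of all tested loci. Ccl5 and the locus of Ccl7 and Ccl11 reached that level in titled ApoE-/- libraries only (3 and 4 libraries), so their entry into this fit depended on the group in which they were higher. Both kept an unadjusted p under 0.05 in the fit without that filter, at 0.0247 for Ccl5 and 0.00207 for Ccl7 and Ccl11. The titled groups did not overlap in log2 CPM for 3 member loci, with NPRC-/-ApoE-/- lower each time, as for 3.69% of all tested loci. Adjusted p-values of the 7 loci (edgeR, Benjamini-Hochberg) were between 0.254 (Ccl8) and 0.816 (Ccl3).

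**Figure D2:**
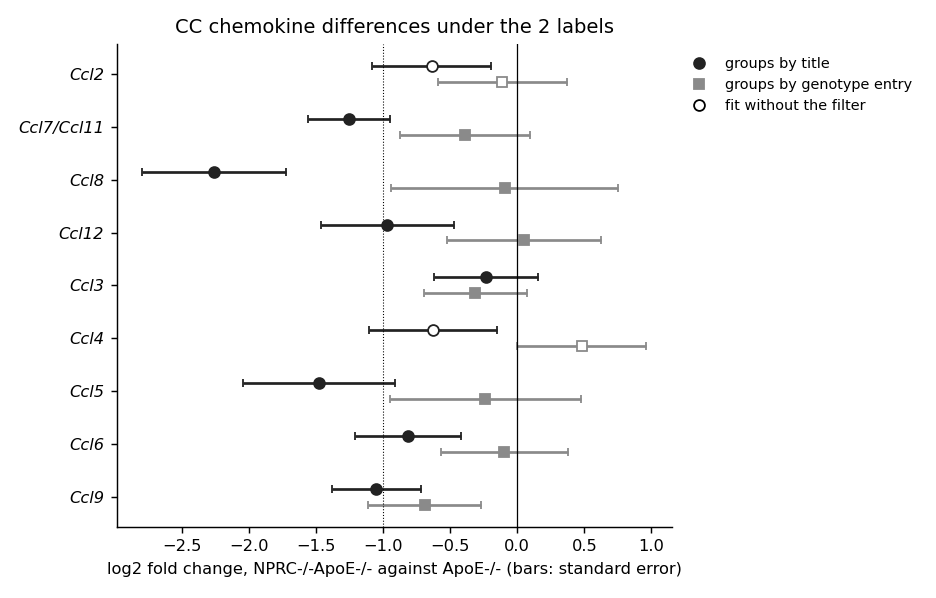
Log2 fold change of each CC chemokine, NPRC-/-ApoE-/- against ApoE-/- (horizontal axis, bars are standard errors), with groups by title (black circles) and by genotype entry (grey squares). Open symbols are Ccl2 and Ccl4, taken from the fit without a filter, and the dotted line marks a log2 fold change of -1. By title all points lie left of 0, and by genotype entry they lie between -0.69 (Ccl9) and 0.48 (Ccl4).

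When libraries were grouped by genotype entry, the differences were smaller in size for every member locus except Ccl3, and none passed the test. In the fit that kept low values, 0 of the 9 loci were lower with an unadjusted p under 0.05, beside 0.938% of all loci, and the median log2 fold change was -0.11. Ccl8 was at 18.5, 68.5, 38.8, 12.4 and 7.87 FPKM in the libraries entered as Apoe-/- and at 55.5, 19.3 and 4.94 FPKM in those entered as Nprc-/-Apoe-/-. Both groups held high and low libraries, and the log2 fold change of Ccl8 was -0.09 (standard error 0.85, unadjusted p = 0.914). Ccl9 had the most negative value, -0.69 (standard error 0.42, unadjusted p = 0.135), with a mean of 12.2 ± 6.51 FPKM (SD, n = 5) in Apoe-/- and 7.42 ± 1.00 FPKM (SD, n = 3) in Nprc-/-Apoe-/-. For the others it was -0.39 (Ccl7 and Ccl11), -0.31 (Ccl3), -0.24 (Ccl5), -0.10 (Ccl6) and 0.05 (Ccl12), and in the fit that kept low values -0.11 (Ccl2) and 0.48 (Ccl4). The groups overlapped for each of the 9 loci, and the adjusted p from edgeR (Benjamini-Hochberg) was 1 for the 7 tested loci. The standard error of Ccl8 rose from 0.54 by title to 0.85 by genotype entry.

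Both labels were alike for 4 libraries, 3 ApoE-/- and 1 NPRC-/-ApoE-/-, for which values were computed without a test. Over these libraries the log2 fold change was -3.01 for Ccl8, -1.57 for Ccl7 and Ccl11, -1.50 for Ccl5, -1.38 for Ccl12, -1.37 for Ccl6, -1.30 for Ccl9 and -0.36 for Ccl3. All 7 rest on the single library NPRC-/-ApoE-/- 3.

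Leaving out each library in turn kept the unadjusted p of Ccl8, Ccl9 and the locus of Ccl7 and Ccl11 under 0.05 in all 8 fits by title. Over these fits the log2 fold change was between -2.63 and -1.99 for Ccl8, between -1.45 and -1.08 for Ccl7 and Ccl11, and between -1.19 and -0.81 for Ccl9. By genotype entry, Ccl9 without NPRC-/-ApoE-/- 2 was the only member with an unadjusted p under 0.05. Without ApoE-/- 4 the value of Ccl8 by genotype entry was -1.29, and without ApoE-/- 2 it was 0.46, so that its sign depended on the library left out.

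**Figure D3:**
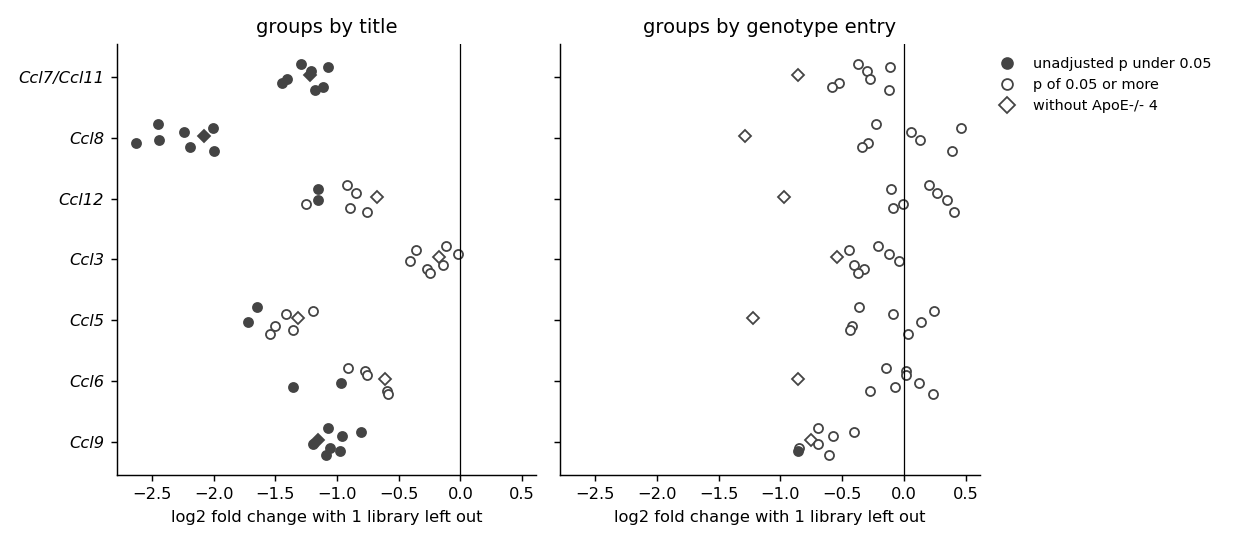
Log2 fold change of the 7 tested member loci (horizontal axis) in the 8 fits that each leave out 1 library, by title (left) and by genotype entry (right). Filled points have an unadjusted p under 0.05 and diamonds are the fits without ApoE-/- 4. By title the points stay below 0, and by genotype entry the points of Ccl12, Ccl5, Ccl6 and Ccl8 lie on both sides of 0.

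The members varied together across the libraries. ApoE-/- 4 and ApoE-/- 3 were above the median of 8 libraries for all 9 loci, while NPRC-/-ApoE-/- 3 was above it for 0 and NPRC-/-ApoE-/- 2 and ApoE-/- 5 each for 1. The mean rank of the 9 loci, with 1 as the highest library, was 2.00 in ApoE-/- 4 and 6.33 in ApoE-/- 5, which are both titled ApoE-/- and both entered as Nprc-/-Apoe-/-. It was 5.22, 6.89 and 6.56 in NPRC-/-ApoE-/- 1 to 3. ApoE-/- 5 was thus nearer to the NPRC-/-ApoE-/- libraries than to the other ApoE-/- libraries. Among the 36 pairs of loci, all Pearson correlations of log2 CPM over the 8 libraries were positive, with a median of 0.65, a lowest value of 0.09 for Ccl3 and Ccl8 and a highest of 0.94 for Ccl8 and the locus of Ccl7 and Ccl11. The points of a pair share their libraries, and both titled groups are among them.

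The level of Ccl8 relative to Ccl6, its peer in abundance, did not overlap between the titled groups, but the difference did not pass after adjustment. The ratio of their FPKM values was 0.631, 1.54, 0.964, 1.03 and 0.868 in ApoE-/- 1 to 5 and 0.346, 0.512 and 0.354 in NPRC-/-ApoE-/- 1 to 3. The difference of the mean log2 ratio was -1.28 by title (two-sided exact permutation p = 0.0357, 0.107 after adjustment over the 3 pairs of Ccl6, Ccl8 and Ccl9) and -0.04 by genotype entry (exact permutation p = 1). Ccl9 relative to Ccl6 differed by -0.09 by title (exact permutation p = 1) and by -0.27 by genotype entry (exact permutation p = 0.5). Ccl9 relative to Ccl8 differed by 1.19 by title, with overlapping groups (exact permutation p = 0.0714), and by -0.24 by genotype entry (exact permutation p = 0.75). These ratios were chosen after the values had been seen.

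CCR2, the main receptor of the monocyte chemoattractant proteins, had the largest difference of the receptors that passed the filter. Ccr2 was at 8.94, 5.09, 6.01, 5.22 and 3.83 FPKM in ApoE-/- 1 to 5 and at 3.02, 0.86 and 1.04 FPKM in NPRC-/-ApoE-/- 1 to 3. The titled groups did not overlap, and the log2 fold change was -1.81 (standard error 0.45, unadjusted p = 0.00287, exact permutation p = 0.0357). By genotype entry it was -0.48 (standard error 0.70, unadjusted p = 0.507). DESeq2 gave Ccr2 an adjusted p of 0.00224 by title, against 0.255 in edgeR's quasi-likelihood test.

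Ccr1, which binds Ccl3, Ccl5, Ccl6 and Ccl9, did not pass the test. It was at 2.69, 2.73, 4.26, 5.17 and 1.43 FPKM in ApoE-/- 1 to 5 and at 4.2, 0.81 and 1.32 FPKM in NPRC-/-ApoE-/- 1 to 3. NPRC-/-ApoE-/- 1, the library in which Ccl6 was also high, lay within the ApoE-/- range, and the log2 fold change was -0.65 (standard error 0.58, unadjusted p = 0.296). Without NPRC-/-ApoE-/- 1 it was -1.59 with an unadjusted p of 0.0204. In the other fits by title that each left out a library, the unadjusted p was between 0.16 and 0.686. By genotype entry over all libraries the log2 fold change was -0.11 (standard error 0.62, unadjusted p = 0.861).

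Ccr3, the receptor of Ccl11, and Ccr8, a receptor of mouse Ccl8, were at the edge of detection. Ccr3 had between 10 and 38 counts in the ApoE-/- libraries and 14, 0 and 4 counts in NPRC-/-ApoE-/- 1 to 3. Ccr8 had between 4 and 22 counts in the ApoE-/- libraries and 0, 0 and 11 counts in NPRC-/-ApoE-/- 1 to 3. In the fit that kept low values the log2 fold change by title was -2.07 for Ccr3 (standard error 0.94, unadjusted p = 0.0529) and -1.57 for Ccr8 (standard error 1.32, unadjusted p = 0.262). By genotype entry it was 0.03 for Ccr3 and -0.20 for Ccr8.

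The atypical receptors take up chemokines without G protein signalling. Ackr1, found on venular endothelium and red cells, shared a locus with Cadm3, which was at 2.21, 1.81, 2.55, 1.17 and 1.62 FPKM in ApoE-/- 1 to 5 and 0.96, 0.90 and 1.09 FPKM in NPRC-/-ApoE-/- 1 to 3. The titled groups did not overlap, with a log2 fold change of -0.91 (standard error 0.26, unadjusted p = 0.00701, exact permutation p = 0.0357), and which of both genes gave the counts cannot be told apart. By genotype entry the groups overlapped, and the log2 fold change of Ackr1 was -0.38 (standard error 0.38, unadjusted p = 0.344, exact permutation p = 0.571). Ackr2, a scavenger of inflammatory CC chemokines, had a log2 fold change of -0.42 (standard error 0.48, unadjusted p = 0.409) by title and of -0.19 (standard error 0.50, unadjusted p = 0.707) by genotype entry.

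**Figure D4:**
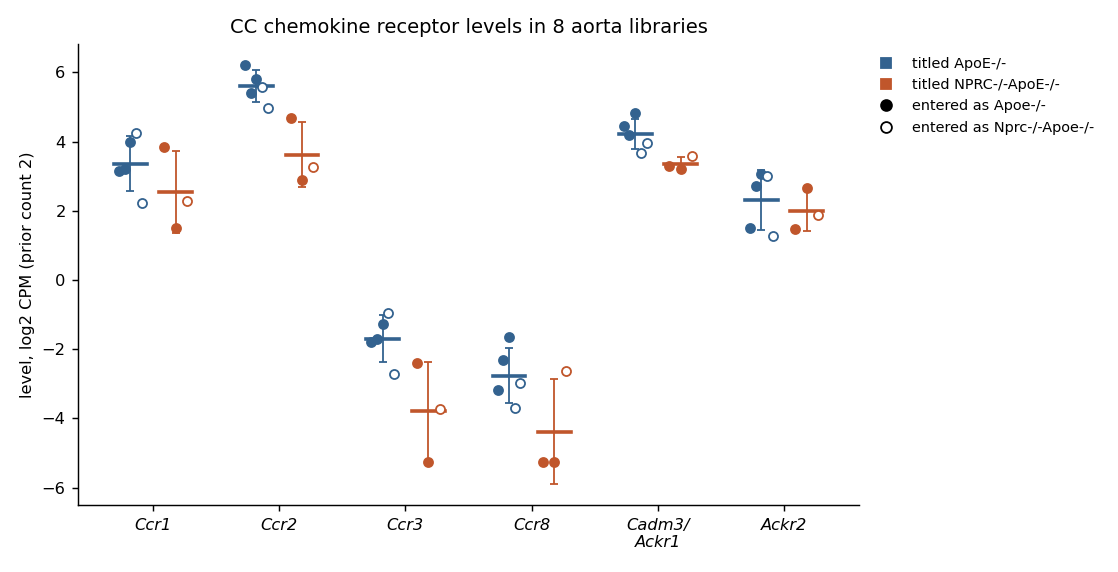
Level of 4 CC chemokine receptors and 2 atypical receptors (log2 CPM, vertical axis) in the 5 libraries titled ApoE-/- (blue) and the 3 titled NPRC-/-ApoE-/- (orange), with group means and SD. Points are filled when entered as Apoe-/- and open when entered as Nprc-/-Apoe-/-. The titled groups do not overlap for Ccr2 and Cadm3/Ackr1, and Ccr3 and Ccr8 have the lowest levels.

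Genes that carry the signal behind these receptors in leukocytes were lower by title as well. Of 13 such loci, 8 had an unadjusted p under 0.05 and a negative fold change by title, beside 7.13% of all tested loci, and the median log2 fold change was -0.93. By genotype entry 0 of the 13 passed, beside 0.697% of all tested loci, with a median of -0.22. The smallest p by title was that of Arrb2, encoding beta-arrestin 2, which ends signalling and internalizes the receptors. Its level was 5.79, 6.39, 7.28, 6.82 and 4.52 FPKM in ApoE-/- 1 to 5 and 4.39, 2.52 and 2.50 FPKM in NPRC-/-ApoE-/- 1 to 3. The lowest ApoE-/- library and the highest NPRC-/-ApoE-/- library were nearly equal, and the log2 fold change of the Arrb2 locus, which also carries Mir7115, was -0.97 (standard error 0.25, unadjusted p = 0.00398). By genotype entry Arrb2 was at -0.17 (standard error 0.40, unadjusted p = 0.683). Gnai2 and Gnai3, the widely expressed inhibitory G protein subunits, did not pass, at -0.33 (standard error 0.22) and -0.33 (standard error 0.15) by title and -0.02 each by genotype entry.

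Markers of several cell types moved with the chemokines by title. Of 9 macrophage markers, 5 were lower with an unadjusted p under 0.05 (C1qa, C1qb, C1qc, Csf1r and Fcgr1), beside 7.13% of all tested loci. All 9 values were negative with a median of -1.01, beside 50.9% negative among all tested loci. The summed level of the 9 markers was between 1087 and 2264 CPM in the ApoE-/- libraries and between 764 and 1293 CPM in the NPRC-/-ApoE-/- libraries. It was lowest in ApoE-/- 5 among the former and highest in NPRC-/-ApoE-/- 1 among the latter. The Cd68 locus gave 262 to 470 CPM of these sums and carries 8 gene names, among them Senp3 and Eif4a1. Which of these genes gave its counts cannot be told apart. The defining marker Adgre1 was at -1.01 with an unadjusted p of 0.0653, and Mertk was at -0.02. Markers of resident adventitial macrophages had a median of 0.00 and 2 of 5 were lower, beside the same 7.13% (252 to 360 CPM in ApoE-/-, 226 to 300 CPM in NPRC-/-ApoE-/-). In bulk tissue, fewer cells of a type and less RNA per cell cannot be told apart, and the part of macrophage content in the chemokine differences was not tested.

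Smooth muscle markers went the other way, with 6 of 6 higher by title at an unadjusted p under 0.05, a median of 0.75 and 6.51% of all tested loci higher, and 5153 to 7465 CPM in ApoE-/- against 7102 to 12732 CPM in NPRC-/-ApoE-/-. Mast cell markers were lower for 4 of 5, beside 7.13% of all tested loci (24.1 to 47.7 CPM against 10.9 to 31.2 CPM), but 2 of them, Cpa3 and Tpsb2, reached 1 FPKM in titled ApoE-/- libraries only, so their entry depended on the group in which they were higher. Fibroblast markers were lower for 2 of 6, beside the same 7.13% (3200 to 8766 CPM against 1906 to 4400 CPM). All 6 fibroblast values were negative by title with a median of -0.85, beside 50.9% negative among all tested loci. Of the other lists, T cell (Cd4), natural killer cell and neutrophil markers each had 1 lower locus, of 1, 1 and 4 tested, and 0 loci passed among 1 B cell, 5 endothelium, 5 brown fat, 4 white fat and 4 striated muscle loci. No eosinophil marker reached the level for testing, with a summed level of 0.187 to 1.96 CPM in all libraries. By genotype entry 0 loci of these lists passed. The part of these cell types in the chemokine differences was not tested either. The smooth muscle and endothelium markers, at 5153 to 12732 and 1079 to 1298 CPM, show vessel wall in each library.

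**Figure D5:**
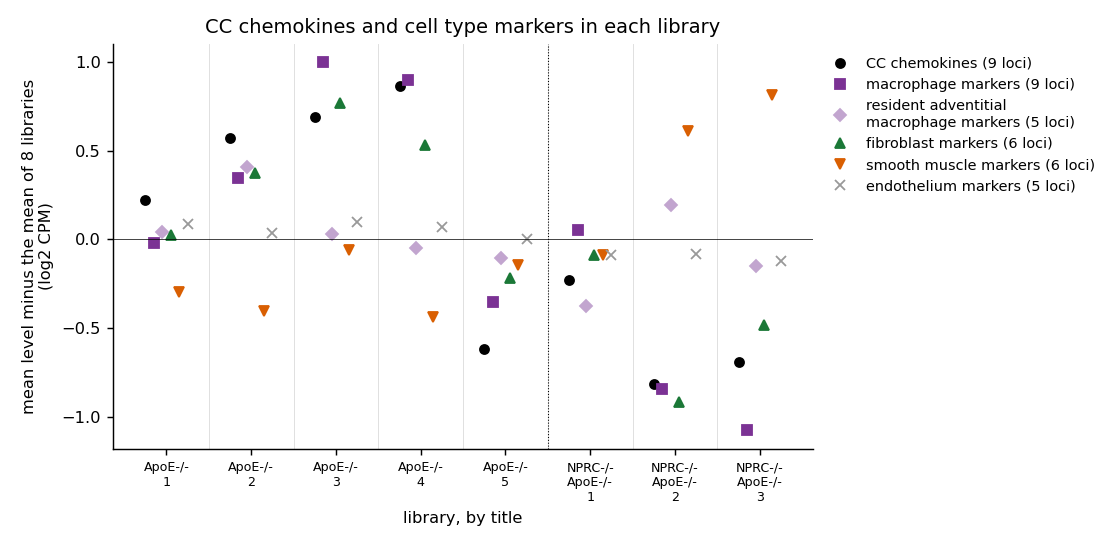
Mean level of the 9 CC chemokine loci and of 5 marker lists in each of the 8 libraries, as the difference from the mean of all libraries (log2 CPM, vertical axis). The dotted line separates the titled groups. Chemokines and macrophage markers are above 0 in ApoE-/- 2, 3 and 4 and below 0 in ApoE-/- 5 and NPRC-/-ApoE-/- 2 and 3. They differ in sign in ApoE-/- 1 (0.22 and -0.02) and NPRC-/-ApoE-/- 1 (-0.23 and 0.05). The smooth muscle markers are highest in NPRC-/-ApoE-/- 2 and 3.

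The loci whose pattern over the 8 libraries was most like the mean of the 7 tested member loci were sought among loci with 1 gene name, an Ensembl identifier and a mean of at least 1 FPKM, which left 30 candidates. They were Sh2d1b1 (Pearson r = 0.98), Panx1 (0.96), Traf1 (0.90), Nod2 (0.90) and Mefv (0.89). Without the condition on the identifier, which was dropped after the values had been seen, the 5 most alike of 17271 loci were Bin3, Scamp2, Avl9, Rpl17-ps10 and Jak1, with r between 0.98 and 0.99. With 8 libraries and this many candidates, high correlations are a description of the same libraries.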

How the data were processed

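Whole aortas were sequenced as poly(A) RNA, 1 library per mouse per the labels. The authors trimmed the reads (cutadapt 1.9 is among the tools in the submitters' processing notes, with GRCm38 as build), mapped them with HISAT2 and assembled transcripts with StringTie. They deposited whole-number counts per assembled locus without normalization, and the strand setting of the counting is not given in the sources used here. The deposited FPKM values had been scaled by the authors to transcript length and library size. Columns of per-sample values that matched no sample numbered 0.

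Members and gene lists were chosen with earlier results of these data known. Named genes were all members, 4 receptors, 2 atypical receptors, the signalling gene with the smallest p of 13, and the 5 loci most correlated with the tested members. Npr3, the targeted gene, cell type markers from the lists, and Gnai2, Gnai3, Ccl17, Ccl19 and Ccl22 were named besides, after their values were seen. The result of 1 listed gene is not reported here. Loci with 1 FPKM or more in 3 libraries (20506 of 48607) were tested on counts with edgeR 4.0.16 in R 4.3.3 (TMM scaling, trended dispersion, quasi-likelihood test, Benjamini-Hochberg over all tested loci). By the study's criterion, changed genes differed by a fold change over 2 or under 0.5 at an unadjusted p under 0.05. DESeq2 1.42.0 and limma 3.58.1 (on log2 of FPKM plus 1 or 0.1) were alternatives. Levels were log2 CPM (prior count 2). Single values were compared with two-sided exact permutation tests over 56 splits (scipy 1.17.1), with a smallest p of 0.0357. On simulated data with 200 loci changed 4-fold, the test called 98.5% of them by title. The changed loci were drawn among well-counted loci, with dispersions from the trend and loci independent of each other. This share is therefore a check of the code and not the power for the real loci. No libraries agreed within sampling noise. Over 50-base stretches, 1.97% of the Ccl9 exons were shared with other genes and 0 of the other members' exons. Precision was limited by the 8 libraries, whose biological coefficient of variation was 0.327 by title.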

Additional observations from a re-analysis of the deposited data

Results flagged for a closer look

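In 3 of the 30 groups of 5 libraries examined for members and receptors, 1 library stood far from the rest, and chance alone gives about 1.5 such groups. Among the libraries titled ApoE-/-, ApoE-/- 5 was low for Ccl2, at 1.044 log2 CPM against 2.64 in the nearest library. Among the libraries entered as Apoe-/-, NPRC-/-ApoE-/- 2 was low for Ccl2, at 1.036 against 2.41, and for Ccr3, at -5.263 against -2.41, where it had 0 counts. Both libraries carry conflicting labels.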

How the results depend on the processing

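By title, 4 of 7 tested member loci were lower with an unadjusted p under 0.05 (7.13% of all loci), 4 were changed (2.39%) and 0 had an adjusted p under 0.05. Of these 4, Ccl5 and the locus of Ccl7 and Ccl11 had entered the test through titled ApoE-/- libraries only. DESeq2 gave 6 lower (9.01% of all loci) and 2 with an adjusted p under 0.05 (3.17%). The changed loci numbered 2 with limma and a pseudocount of 0.1, 1 with a pseudocount of 1, and 2 with array weights. Of all 20506 loci, 495, 137 and 373 were changed and lower in these fits. Array weights also gave 6 lower (16.6% of all loci) and 2 with an adjusted p under 0.05 (5.7%). At a mean of at least 5 FPKM, 3 members were left, with 2 lower (8.81% of all loci) and 1 changed (78 of all 4246 loci changed and lower). Grouping by genotype entry gave 0 lower (0.697% of all loci) and 0 changed (54 of all 20506 loci changed and lower), a median of -0.24 and 0.0486 for Ccl12. The receptor and signalling loci lower by title, 10 of 17, became 16 with array weights and 6 of 7 at 5 FPKM. In the same order, 7.13%, 16.6% and 8.81% of all loci were lower. The cause of these shifts was not tested beyond the fewer loci at 5 FPKM.

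When each library was left out in turn by title, 2 to 5 members were changed (2 without ApoE-/- 3 or NPRC-/-ApoE-/- 2), 3 to 6 were lower, and 4 to 14 receptor and signalling loci were lower (4 without NPRC-/-ApoE-/- 2 or 3). Of all tested loci, 2.92% (without NPRC-/-ApoE-/- 2) to 11.6% (without NPRC-/-ApoE-/- 1) were lower. In the same fits 227 to 1090 of the 20506 loci were changed and lower. By genotype entry, 0 to 1 members and 0 to 2 receptor and signalling loci were lower, the median was between -0.86 and 0.12, and signs turned for Ccl12 (-0.97 to 0.40), Ccl5 (-1.23 to 0.24), Ccl6 (-0.86 to 0.24), Ccl8 (-1.29 to 0.46), Ccr1 (-1.08 to 0.21) and Ackr2 (-0.80 to 0.12). The most negative of these values were all without ApoE-/- 4. Ccl12 by genotype entry was also -0.11 with limma. Over all tested loci by title, 491 were changed and lower and 221 changed and higher in edgeR, against 137 and 38 with limma (pseudocount 1), and 650 had an adjusted p under 0.05 in DESeq2 against 0 in edgeR.

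Libraries with the same number did not deviate together from the means of their titled groups (correlations -0.31, -0.11 and 0.01). So few pairs, centred within small groups, cannot show whether they share more than a number. A replicate block over the 6 libraries numbered 1 to 3 gave 4 members lower, 4 changed and a median of -1.34, and the same libraries without the block gave 4, 4 and -1.38. Of all 20506 loci, 5.21% were lower and 534 changed and lower with the block, against 7.14% and 586 without it. filterByExpr was added after the data had been seen and left 4 of 9 member loci lower by title (7.14% of 32816 loci). With 5 against 3 libraries and conflicting labels for 4 of them, the title and the genotype entry give different results.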

Other observations

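CC chemokines outside the member list were measured at 9 loci, of which 4 (Ccl19, Ccl21a, Ccl25 and Ccl27a) passed the filter and 0 of 4 had an unadjusted p under 0.05 by title, with log2 fold changes from -0.42 to 0.39. Ccl19 and Ccl21a guide T cells and dendritic cells through CCR7. Ccl19 was at 4.38, 6.49, 5.06, 2.34 and 4.01 FPKM in ApoE-/- 1 to 5 and at 3.91, 3.78 and 2.15 FPKM in NPRC-/-ApoE-/- 1 to 3. By genotype entry Ccl19 was the only CC chemokine with an unadjusted p under 0.05 in the main fit (log2 fold change -0.73, standard error 0.27, unadjusted p = 0.0234), and its adjusted p in edgeR was 1.

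Ccl17 and Ccl22, ligands of CCR4 made largely by dendritic cells, were below the filter and are named after their values had been seen. Ccl17 had 42, 48, 72, 38 and 20 counts in ApoE-/- 1 to 5 and 12, 3 and 8 counts in NPRC-/-ApoE-/- 1 to 3. The titled groups did not overlap, and in the fit that kept low values the log2 fold change was -2.57 (standard error 0.59, unadjusted p = 0.00147, adjusted p = 0.263 in edgeR). By genotype entry it was -0.74 (unadjusted p = 0.422). Ccl22 had 200, 226, 198, 159 and 51 counts in ApoE-/- 1 to 5 and 137, 7 and 25 counts in NPRC-/-ApoE-/- 1 to 3, with a log2 fold change of -1.70 by title (unadjusted p = 0.0547) and -0.996 by genotype entry (unadjusted p = 0.282). The titled groups overlapped for Ccl22, where ApoE-/- 5 was low and NPRC-/-ApoE-/- 1 was high.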
